A study of Mus musculus with 6 samples.

Results

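The 10 genes described here mark stages of the oligodendrocyte lineage, the cells that make myelin in the brain. They comprise 3 progenitor genes (Pdgfra, Cspg4 and C1ql1), 4 committed precursor genes (Gpr17, Bcas1, Enpp6 and Neu4) and 3 lineage factors (Olig1, Olig2 and Sox10). They were taken by gene symbol and make up 10 of the 54429 gene rows deposited for each library. RNA was sequenced from total lysates of the prefrontal cortex (PFC) of 6 mice aged 6 months, 2 mice in each of 3 groups, giving 1 library a mouse. The WT group held C57BL/6 x C3H control mice given vehicle. The Tau group held PS19 (P301S) mice given vehicle, and the Tau+UNC0642 group held PS19 (P301S) mice given UNC0642, an inhibitor of the histone methyltransferases EHMT1 and EHMT2, at 1 mg/kg once daily for 3 days. Vehicle was given on the same schedule, and tissue was taken 24 hours after the last injection. PS19 mice carry a human tau transgene of the 1N4R isoform with a mutation found in inherited frontotemporal dementia. It is driven by the mouse prion promoter, which is active across the nervous system rather than in a single cell type. The PS19 mice and their WT littermates were bred on a B6C3H/F1 background. All libraries analysed here from UNC0642-treated mice carried the transgene, so the effect of UNC0642 without it was not tested.

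Oligodendrocyte progenitors are spread through the adult cortex, carry the receptor for platelet-derived growth factor and the NG2 proteoglycan on their surface, and can still divide. Some of them leave the cycle and pass through a short committed stage, marked by GPR17, BCAS1 and ENPP6, before they become myelinating oligodendrocytes. The transcription factors OLIG1, OLIG2 and SOX10 act throughout the lineage, from the progenitor to the mature cell. The comparisons asked whether these genes differed between Tau and WT mice, whether they differed between Tau mice given UNC0642 and Tau mice given vehicle, and how UNC0642-treated Tau mice compared with WT.

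Library totals ranged from 17005664 to 28972176 counts, and counts of the 10 genes ranged from 32 to 2655 in a library. Where the values of a group are given in pairs, replicate 1 comes before replicate 2. Tau replicate 2 and the library labelled WT replicate 1 stood apart from the rest. Prnp, whose promoter drives the transgene, was at 1652 CPM (counts scaled to a common library total) in the library labelled WT replicate 1 and at 873 CPM in WT replicate 2, whereas the 4 PS19 libraries held 1470 to 1694 CPM. Mapt, the mouse tau gene, was at 576 and 449 CPM in the pair labelled WT and at 571 to 614 CPM in the PS19 libraries. The library labelled WT replicate 1 thus went against its label in this check, and the comparisons of the 10 genes with WT are given with and without it. Summed over 25 genes of mature oligodendrocytes and myelin, the level was 3801 CPM in the library labelled WT replicate 1 and 2078 CPM in WT replicate 2, 2746 and 6871 CPM in Tau replicates 1 and 2, and 2877 and 3020 CPM in the 2 Tau+UNC0642 replicates. Tau replicate 2 also held the highest summed level of 10 striatal projection neuron genes (402 CPM, against 182 to 219 CPM in the other 5 libraries) and the lowest of 12 fibroblast genes (53.4 CPM, against 72.5 to 107 CPM). Counts of Xist and of Y-linked genes showed a female pattern in WT replicate 2 and both Tau libraries and a male pattern in the library labelled WT replicate 1 and both Tau+UNC0642 libraries. Sex and UNC0642 treatment therefore cannot be told apart within the Tau mice.

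The 250 bases ahead of the transcription start, taken from RefSeq (GRCm38.p6), were searched for 5 of the 10 genes (Pdgfra, Cspg4, Enpp6, Neu4 and Olig2). A window for each role is shown, to set a progenitor gene, a precursor gene and a lineage factor side by side. The Pdgfra window lies at chr5:75152001-75152250, that of Enpp6 at chr8:46986637-46986886 and that of Olig2 at chr16:91225300-91225456, all on the plus strand. The Olig2 window was shortened to the 157 bases that precede the gene start in both RefSeq and GENCODE. Sequences run 5′ to 3′, and capitals mark a searched motif.
Pdgfra: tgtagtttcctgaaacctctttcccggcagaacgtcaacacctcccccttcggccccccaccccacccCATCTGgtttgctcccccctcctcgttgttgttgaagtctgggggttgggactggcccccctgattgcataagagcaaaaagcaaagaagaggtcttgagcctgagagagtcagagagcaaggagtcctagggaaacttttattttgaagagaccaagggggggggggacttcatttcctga
Enpp6: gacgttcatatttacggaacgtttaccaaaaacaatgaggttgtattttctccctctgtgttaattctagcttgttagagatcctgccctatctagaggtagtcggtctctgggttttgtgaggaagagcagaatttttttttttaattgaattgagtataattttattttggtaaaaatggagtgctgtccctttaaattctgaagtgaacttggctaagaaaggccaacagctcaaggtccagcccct
Olig2: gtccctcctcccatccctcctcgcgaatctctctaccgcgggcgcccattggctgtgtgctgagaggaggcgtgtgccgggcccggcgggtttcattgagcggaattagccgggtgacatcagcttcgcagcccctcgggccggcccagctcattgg
The motifs were searched on both strands, so that a match of the reverse complement also counted. They were ACAAAG, a core recognised by SOX factors, and a pair of E-boxes, the sites of basic helix-loop-helix factors such as OLIG2, namely CAGCTG, which reads alike on both strands, and CAGATG. Over 32851 upstream windows of 250 bases, 16.5% held the SOX core, 13.0% held CAGCTG and 14.4% held CAGATG. Among the 5 windows of the lineage genes a single match was found, to the last of these motifs, and it stands in capitals in the Pdgfra window as its reverse complement. GC content of the full 250-base windows was 54.4% for Pdgfra, 38.4% for Enpp6 and 66.8% for Olig2, beside a median of 52.4% over all windows. The full 250-base window of Olig2 held 22 CpG dinucleotides, and those of Pdgfra and Enpp6 held 4 each.

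Levels of different genes were compared as CPM per kilobase of exon, using exon lengths from GENCODE M21. Bcas1, which encodes a protein of early myelinating cells, had the highest median over the 6 libraries at 14.2 CPM per kilobase (range 10.9 to 40.3), followed by Olig1 at 13.3 (10.7 to 17.8), and these 2 ranges overlapped. Pdgfra came next at 7.04 CPM per kilobase (6.61 to 8.02) and was separated from Olig1 above it and from Gpr17 below it, which stood at 4.35 (3.49 to 5.63). The lower ranks ran from Olig2 at 3.11 CPM per kilobase through Sox10 at 2.13, Neu4 at 1.65, C1ql1 at 1.40 and Cspg4 at 1.14 to Enpp6 at 0.734, and from Gpr17 downward each gene's range overlapped that of the next. The plot of levels per exon length shows the order of the genes together with their unequal spread.

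**Figure D1:**
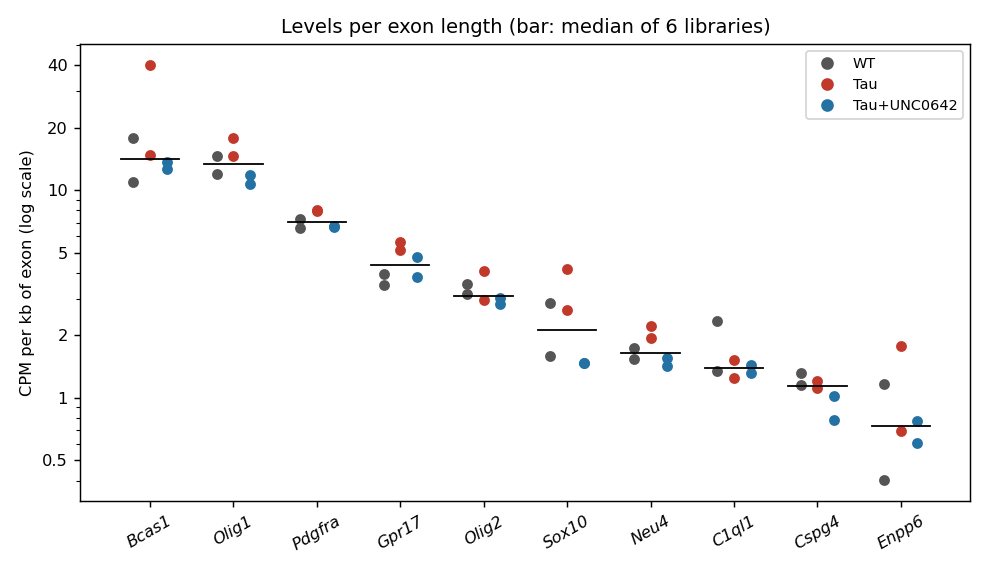
CPM per kilobase of exon (log axis) of the 10 genes in each of 6 PFC libraries, coloured by group, with a bar at the median. Bcas1 and Olig1 lie highest, and the libraries of Enpp6, Bcas1 and Sox10 are more scattered than those of Pdgfra.

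The comparison of Tau with WT gave higher fitted levels for 8 of the 10 genes in Tau and lower ones for 2. Gpr17 and Bcas1 rose, 2 of 10 genes called at a p under 0.05 and a fold of 1.2 or more, where 9.81% of the 20409 genes tested were called, 3.72% up and 6.1% down. Leaving out either the library labelled WT replicate 1 or Tau replicate 1 gave 5 calls, Gpr17, Bcas1, Enpp6, Olig1 and Sox10, all higher in Tau, and leaving out Tau replicate 2 gave 1, Gpr17. After UNC0642 the fitted levels of all 10 genes were lower than in Tau mice given vehicle, and 5 of them fell (Gpr17, Bcas1, Neu4, Olig1 and Sox10), beside 7.69% of all genes called in that comparison, 3.73% up and 3.95% down. Without Tau replicate 2 the calls were 3, Gpr17, Olig1 and Sox10, and without Tau+UNC0642 replicate 1 they were 3, Bcas1, Olig1 and Sox10. Between Tau+UNC0642 and WT, 9 of the 10 genes had lower fitted levels and Cspg4 alone was called, lower in Tau+UNC0642, beside 9.47% of all genes, 3.77% up and 5.69% down. Without the library labelled WT replicate 1, 6 of the 10 genes were lower and 4 higher in that comparison, with Cspg4 again called. Without WT replicate 2 the calls were 2, Olig1 and Sox10. None of the 10 genes passed the Benjamini-Hochberg adjustment over all genes in any comparison (edgeR, smallest adjusted p = 0.207 for Gpr17 in Tau against WT, 0.353 for Sox10 after UNC0642 and 0.317 for Cspg4 in Tau+UNC0642 against WT), which 0.157%, 0.0196% and 0.216% of all genes passed. At an unadjusted p under 0.05 stood 3, 6 and 1 of the 10 genes, beside 12.4%, 8.86% and 12.1% of all genes. The median log2 fold change of the 10 genes was 0.31, -0.41 and -0.19 in the 3 comparisons, where the medians of all genes tested were -1e-04, -0.0023 and -0.0123. The last of the 3 medians was -0.07 without the library labelled WT replicate 1 and -0.36 without WT replicate 2.

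The Tau libraries served in both of the first comparisons and the WT libraries in the first and the last, so opposite signs in a pair of comparisons are not separate evidence. The libraries of the groups compared did not overlap for 4, 7 and 4 of the 10 genes in the same order, beside 43.2%, 41.3% and 44.4% of all genes. Bcas1 and Sox10 were also on the lists of genes that the study selected from these libraries as changed in Tau and reversed by UNC0642, so their directions here are not independent evidence. RNA came from whole tissue, in which fewer cells of a type and less RNA per cell cannot be told apart.

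**Figure D2:**
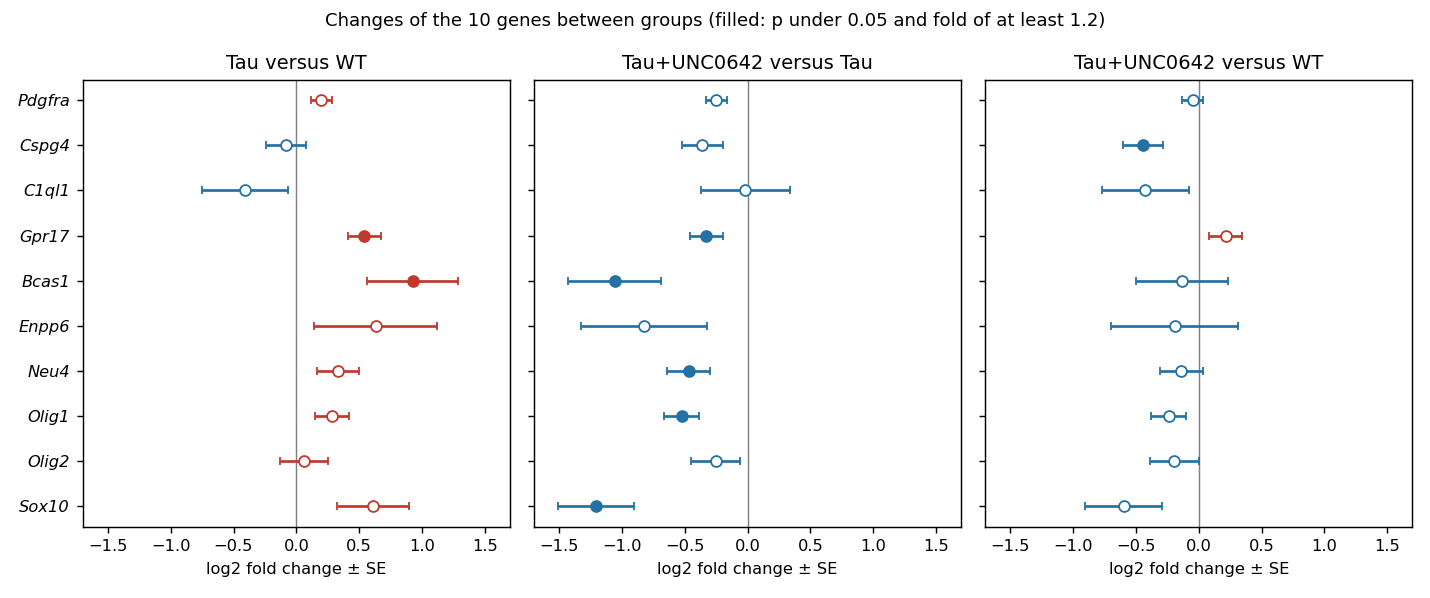
Log2 fold change and its standard error for each of the 10 genes in the 3 comparisons, with 2 libraries a group. Filled points passed a p under 0.05 and a fold of 1.2 or more, which holds for Gpr17 and Bcas1 in Tau against WT, for 5 genes in Tau+UNC0642 against Tau and for Cspg4 in Tau+UNC0642 against WT.

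Among the progenitor genes, Pdgfra encodes the alpha receptor for platelet-derived growth factor, which keeps progenitors dividing and alive. Its gene lies at chr5:75152292-75198215 on the plus strand. Pdgfra stood at 66.2 and 73.4 CPM in the pair labelled WT, at 79.7 and 80.4 CPM in Tau and at 67.0 and 67.9 CPM in Tau+UNC0642. Both Tau libraries were above the other 4, and the WT and Tau+UNC0642 libraries overlapped. The mean was 69.8 ± 5.0 CPM in WT, 80.1 ± 0.50 CPM in Tau and 67.4 ± 0.65 CPM in Tau+UNC0642 (SD, n = 2 each). The log2 fold change was 0.20 ± 0.085 (SE) for Tau against WT (edgeR, adjusted p = 0.392) and -0.25 ± 0.086 for Tau+UNC0642 against Tau (adjusted p = 0.467). Both differences had an unadjusted p under 0.05, and neither reached the fold threshold of 1.2, with folds of 1.15 and 1.19. Leaving out WT replicate 2 raised the first to 0.28 and made it a call, and without the library labelled WT replicate 1 it was 0.12. Against WT, Tau+UNC0642 differed by -0.05 ± 0.086 (adjusted p = 0.857), and by -0.12 without the library labelled WT replicate 1.

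Cspg4 encodes the NG2 proteoglycan and is also made by the pericytes of brain vessels. It lies at chr9:56865033-56899870 on the plus strand. Its level was 13.8 and 15.7 CPM in the pair labelled WT, 14.4 and 13.3 CPM in Tau and 9.35 and 12.2 CPM in Tau+UNC0642. The WT and Tau libraries overlapped, while both Tau+UNC0642 libraries lay below the other 4. Cspg4 fell in Tau+UNC0642 against WT by 0.44 ± 0.16 on the log2 scale (edgeR, adjusted p = 0.317). That call was lost without WT replicate 2 (-0.35) or without Tau+UNC0642 replicate 1 (-0.27) and held without the library labelled WT replicate 1 (-0.53). Against Tau the log2 fold change was -0.36 ± 0.16 (adjusted p = 0.566), which became a call without either WT library and without Tau+UNC0642 replicate 2 (-0.57), and was -0.19 without Tau+UNC0642 replicate 1. For Tau against WT it was -0.08 ± 0.16 (adjusted p = 0.861), and -0.18 without the library labelled WT replicate 1. The summed level of 12 mural cell genes was 238 and 235 CPM in the pair labelled WT, 215 and 218 CPM in Tau and 200 and 194 CPM in Tau+UNC0642, and its part in the Cspg4 values was not tested.

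C1ql1 encodes a secreted protein of the C1q family that progenitors release, and it lies at chr11:102939264-102946688 on the minus strand. It was the gene with the fewest counts, 32 to 88 in a library. C1ql1 stood at 3.47 CPM in the library labelled WT replicate 1 and at 1.83 to 2.25 CPM in the other 5, and WT overlapped both other groups. The log2 fold change was -0.41 ± 0.34 for Tau against WT (edgeR, adjusted p = 0.658) and -0.02 ± 0.36 for Tau+UNC0642 against Tau (adjusted p = 0.993). Tau+UNC0642 differed from WT by -0.43. Without the library labelled WT replicate 1 the differences of Tau and of Tau+UNC0642 from WT were 0.04 and 0.03.

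The 3 progenitor genes did not share a direction in Tau, with Pdgfra higher in fitted level and Cspg4 and C1ql1 lower. The plot of CPM by library shows each of the 10 genes in this way.

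**Figure D3:**
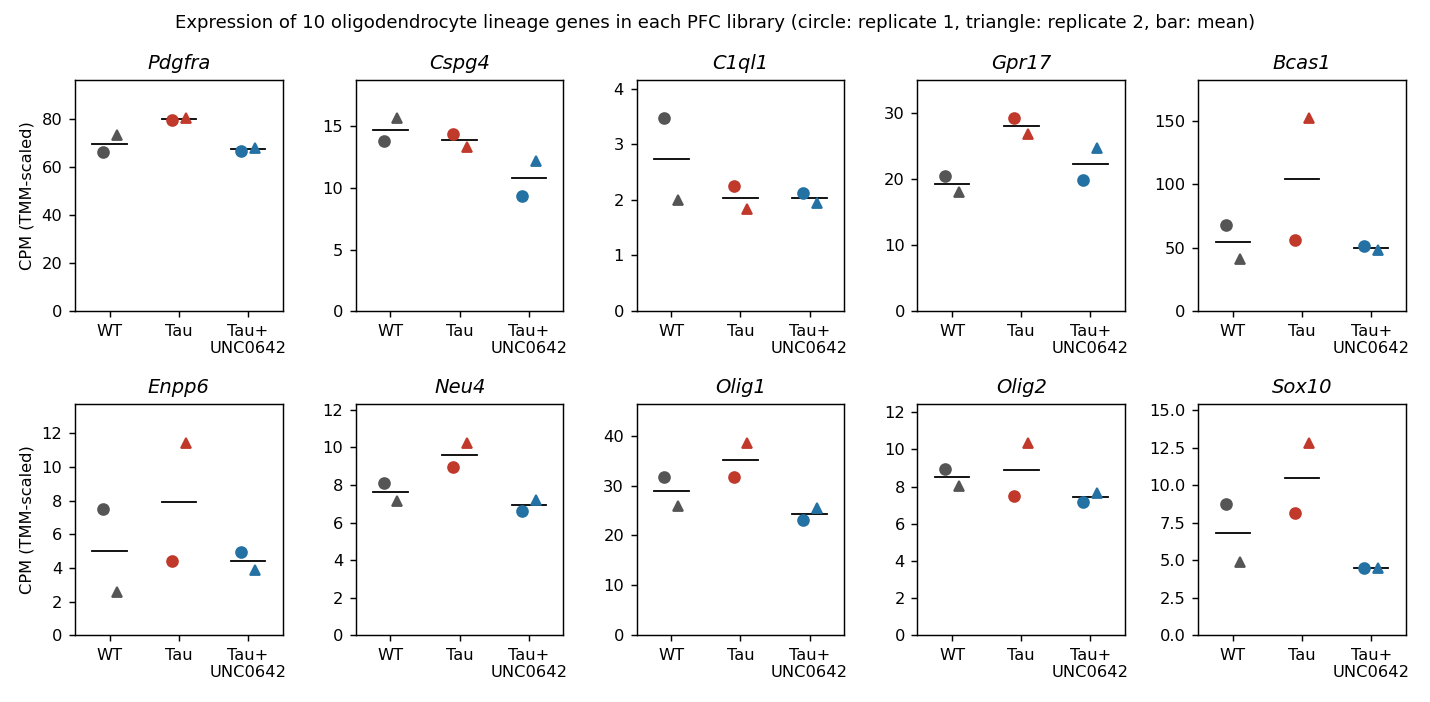
CPM on TMM-scaled library sizes in each library for the 10 genes, with axes from 0, circles for replicate 1, triangles for replicate 2 and bars at the group mean. Tau replicate 2 is the highest library for Bcas1, Enpp6, Neu4, Olig1, Olig2 and Sox10, whereas the 2 Tau libraries of Pdgfra and of Gpr17 lie close together.

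Of the committed precursor genes, Gpr17 encodes a receptor that is switched on as progenitors commit and has to be switched off before they mature. It stood at 20.5 and 18.1 CPM in the pair labelled WT, at 29.2 and 26.9 CPM in Tau and at 19.95 and 24.7 CPM in Tau+UNC0642. Both Tau libraries lay above the other 4, and the Tau+UNC0642 libraries overlapped WT. Gpr17 rose in Tau by 0.54 ± 0.13 on the log2 scale (edgeR, adjusted p = 0.207), a fold of 1.45. It was called in each of the 6 fits that left out a library, with log2 fold changes from 0.46 to 0.63 (0.63 without the library labelled WT replicate 1 and 0.60 without Tau replicate 2). After UNC0642 Gpr17 fell by 0.33 ± 0.13 against Tau (adjusted p = 0.523), a call that was lost without Tau replicate 1 (-0.26) or Tau+UNC0642 replicate 1 (-0.19). Against WT the Tau+UNC0642 group differed by 0.21 ± 0.13 (adjusted p = 0.562), by 0.36, a call, without Tau+UNC0642 replicate 1, by 0.05 without Tau+UNC0642 replicate 2 and by 0.30 without the library labelled WT replicate 1. Gpr17 shares 188 exon bases with Lims2 on the opposite strand, 3.6% of its exon length. Lims2 itself held 89 to 134 counts a library, and the strand setting of the counting is not given in the sources used here. Antisense genes also overlap the exons of Bcas1 (440 bases with Bcas1os1, which held 2 to 10 counts a library), Olig1 (157 bases with Gm15966, 0 to 1 counts) and Pdgfra (456 bases with Gm42802, listed at 0).

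Bcas1 encodes a protein of committed and newly myelinating oligodendrocytes that mature cells keep, and it lies at chr2:170346991-170427845 on the minus strand. Its level was 67.6 and 41.3 CPM in the pair labelled WT, 55.8 and 152 CPM in Tau and 51.5 and 47.8 CPM in Tau+UNC0642. Tau replicate 2 stood alone, Tau replicate 1 was within the range of WT, and both Tau+UNC0642 libraries were below both Tau libraries. The Tau mean of 104 ± 68 CPM (SD, n = 2) therefore came with an SD larger than the WT mean of 54.4 ± 19 CPM. Bcas1 rose in Tau by 0.92 ± 0.36 on the log2 scale (edgeR, adjusted p = 0.362) and fell after UNC0642 by 1.06 ± 0.37 (adjusted p = 0.469). Without Tau replicate 2 these values were 0.04 and -0.17, and neither was called. Without Tau replicate 1 they were 1.48 and -1.62, and the first also passed the adjustment over all genes (adjusted p = 0.0412). The rise was lost without WT replicate 2 as well (0.61) and was 1.32 without the library labelled WT replicate 1, while the fall was lost without Tau+UNC0642 replicate 2 (-1.01). Tau+UNC0642 differed from WT by -0.13 ± 0.37 (adjusted p = 0.914), by 0.26 without the library labelled WT replicate 1 and by -0.45 without WT replicate 2. A fit without both the library labelled WT replicate 1 and Tau replicate 2 was added after seeing the data. In that fit Bcas1 differed by 0.44 in Tau against WT and by -0.17 after UNC0642.

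Enpp6 encodes a choline-specific phosphodiesterase of newly forming oligodendrocytes, and it lies at chr8:46986887-47096762 on the plus strand. It was measured at 7.49 and 2.58 CPM in the pair labelled WT, at 4.43 and 11.5 CPM in Tau and at 4.97 and 3.88 CPM in Tau+UNC0642. All 3 groups overlapped. The log2 fold change was 0.63 ± 0.49 for Tau against WT (edgeR, adjusted p = 0.63) and -0.82 ± 0.50 for Tau+UNC0642 against Tau (adjusted p = 0.667). The first was 1.59 and called without the library labelled WT replicate 1, 1.19 and called without Tau replicate 1, and -0.18 without Tau replicate 2. The second was -1.38 and called without Tau replicate 1 and -0.01 without Tau replicate 2. Tau+UNC0642 differed from WT by -0.19, and by 0.77 without the library labelled WT replicate 1 and -0.77 without WT replicate 2. With the library labelled WT replicate 1 and Tau replicate 2 both left out, Enpp6 differed by 0.79 in Tau and -0.01 after UNC0642. Neu4, which encodes a sialidase and lies at chr1:94020451-94028334 on the plus strand, was at 8.08 and 7.15 CPM in the pair labelled WT, 8.97 and 10.2 CPM in Tau and 6.63 and 7.19 CPM in Tau+UNC0642. Both Tau libraries lay above the other 4. Neu4 fell after UNC0642 by 0.47 ± 0.17 against Tau (adjusted p = 0.482), a call lost without Tau replicate 2 (-0.38) or Tau+UNC0642 replicate 1 (-0.42). Its difference between Tau and WT was 0.33 ± 0.17 (adjusted p = 0.454), which was not called, and it was 0.42 without the library labelled WT replicate 1. Between Tau+UNC0642 and WT the difference was -0.14, and -0.05 without that library.

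The lineage factors Olig1 and Olig2 are basic helix-loop-helix proteins encoded by neighbouring genes on chromosome 16, at chr16:91269772-91271933 and chr16:91225457-91228677 on the plus strand. OLIG2 is needed to specify the lineage and OLIG1 for its later maturation. Olig1 stood at 31.7 and 25.9 CPM in the pair labelled WT, at 31.7 and 38.6 CPM in Tau and at 23.1 and 25.6 CPM in Tau+UNC0642. Both Tau+UNC0642 libraries were below the other 4, and Tau replicate 1 was above the library labelled WT replicate 1 by less than the last digit shown. Olig1 fell after UNC0642 by 0.52 ± 0.14 against Tau (edgeR, adjusted p = 0.395), a fold of 1.44. This fall was called in each of the 6 fits that left out a library, with log2 fold changes from -0.66 to -0.38. For Tau against WT the log2 fold change was 0.28 ± 0.14 (adjusted p = 0.426), which became a call without the library labelled WT replicate 1 (0.43) or without Tau replicate 1 (0.42). Tau+UNC0642 differed from WT by -0.24 ± 0.14 (adjusted p = 0.522), by -0.38, a call, without WT replicate 2 and by -0.09 without the library labelled WT replicate 1.

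Olig2 was at 8.95 and 8.05 CPM in the pair labelled WT, at 7.47 and 10.4 CPM in Tau and at 7.16 and 7.68 CPM in Tau+UNC0642. Tau spanned both WT libraries and overlapped Tau+UNC0642, and the Tau+UNC0642 libraries lay below WT. No difference passed the call, with log2 fold changes of 0.06 ± 0.19 for Tau against WT, -0.25 ± 0.20 for Tau+UNC0642 against Tau and -0.19 ± 0.20 for Tau+UNC0642 against WT (edgeR, adjusted p = 0.93, 0.747 and 0.736). Without Tau replicate 1 the second was -0.48 and called, and without Tau replicate 2 it was -0.01. The first was -0.18 without Tau replicate 2, and without the library labelled WT replicate 1 the first and the last were 0.13 and -0.12. Olig1 passed the threshold in a single comparison and Olig2 in none, and the difference between them was not tested.

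Sox10 encodes an HMG-box factor that drives the myelin genes and is made throughout the lineage, and it lies at chr15:79154908-79165240 on the minus strand. It stood at 8.75 and 4.88 CPM in the pair labelled WT, at 8.12 and 12.8 CPM in Tau and at 4.50 CPM in both Tau+UNC0642 libraries. The Tau+UNC0642 libraries were below the other 4, and Tau replicate 1 lay within the range of WT. Sox10 fell after UNC0642 by 1.21 ± 0.30 on the log2 scale against Tau (edgeR, adjusted p = 0.353), a fold of 2.31 and the largest difference among the 10 genes in any comparison. The fall was called in each of the 6 fits that left out a library, from -1.51 without Tau replicate 1 to -0.85 without Tau replicate 2. Between Tau and WT the log2 fold change was 0.61 ± 0.29 (adjusted p = 0.421), and it was called without the library labelled WT replicate 1 (1.08) or without Tau replicate 1 (0.91), while it was 0.26 without Tau replicate 2. Tau+UNC0642 differed from WT by -0.60 ± 0.30 (adjusted p = 0.464). Without WT replicate 2 this was -0.96. That leaves 3 libraries of male pattern in the comparison, and the WT one is the library that went against its label. Without the library labelled WT replicate 1 the difference was -0.12. With that library and Tau replicate 2 both left out, Sox10 differed by 0.74 in Tau against WT and by -0.85 after UNC0642.

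The 10 genes differed in how far apart the mice of a group lay. As replicate 1 minus replicate 2 of the same group, Bcas1 differed by 0.71 (log2 CPM) in WT and -1.45 in Tau, Enpp6 by 1.51 and -1.35, and Sox10 by 0.83 and -0.65. Over 14418 genes with a mean log2 CPM of at least 1, the 95th percentile of the absolute difference was 0.615 in WT and 0.604 in Tau, so these 3 genes were among the 5% most unequal between the mice of both groups. Pdgfra differed by -0.15 and -0.01, Gpr17 by 0.18 and 0.12, and Cspg4 by -0.18 and 0.11, which was within that range. Olig1 differed by 0.29 and -0.28, Olig2 by 0.15 and -0.47, Neu4 by 0.17 and -0.19 and C1ql1 by 0.77 and 0.29. Of the 25 mature oligodendrocyte and myelin genes, 24 were higher in the library labelled WT replicate 1 than in WT replicate 2 and none was higher in Tau replicate 1 than in Tau replicate 2, with mean differences of 0.82 and -1.24. By role, the mean difference in WT and in Tau was 0.15 and 0.13 for the progenitor genes, 0.64 and -0.72 for the committed precursor genes and 0.42 and -0.47 for the lineage factors. The plot of replicate differences sets the 10 genes against the mature list.

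**Figure D4:**
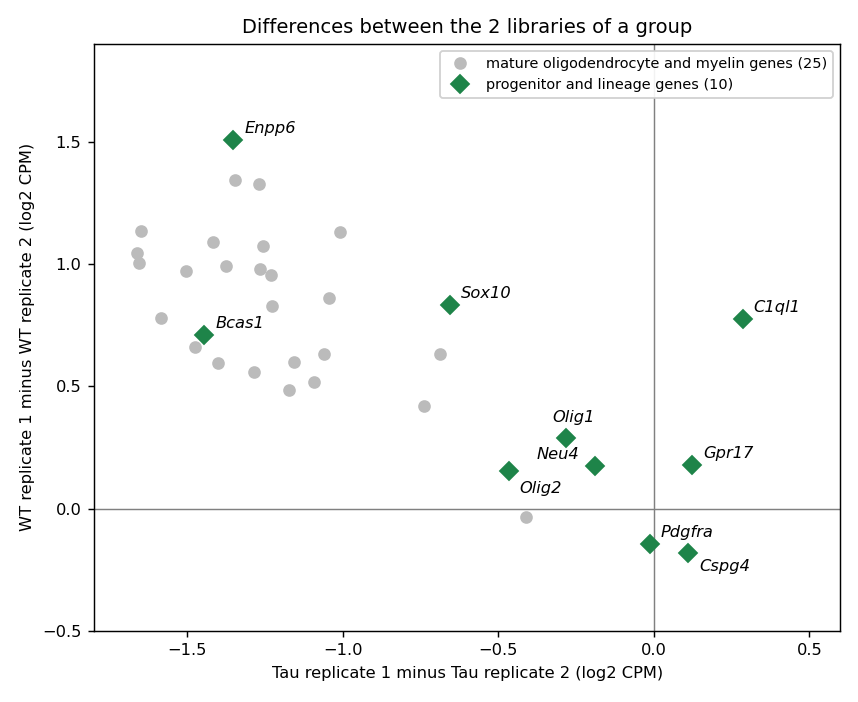
Difference in log2 CPM between replicates 1 and 2 in WT (vertical) against that in Tau (horizontal) for the 10 genes and for 25 mature oligodendrocyte and myelin genes. Bcas1, Enpp6 and Sox10 lie farthest to the upper left, the side of the mature genes. Neu4, Olig1 and Olig2 also lie on that side, with smaller differences, and Pdgfra, Cspg4 and Gpr17 lie near 0 on both axes.

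Bcas1, Enpp6 and Sox10 were also the 3 genes whose 6 libraries spanned at least 1 unit of log2 CPM (1.88, 2.11 and 1.49). Among 14408 other genes, the patterns most like that of Bcas1, by root mean square difference of centred log2 CPM over the 6 libraries, were those of Ugt8a (0.111), Il33 (0.118) and Mag (0.139). Those nearest to Enpp6 were Ppp1r14a (0.146), Sh3tc2 (0.147) and Mog (0.158), and those nearest to Sox10 were Krt80 (0.118), Rhog (0.155) and Tmem125 (0.183). Ugt8a, Mag, Ppp1r14a and Mog belonged to the mature list.

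The mature oligodendrocyte and myelin genes had higher fitted levels in Tau than in WT for 25 of 25, with 9 called, and lower ones after UNC0642 for 25 of 25, with 6 called. Their median log2 fold changes were 0.65 and -0.67, beside 0.31 and -0.41 for the 10 lineage genes. Without Tau replicate 2 the mature medians were -0.12 and 0.10, with none called up in Tau, while the medians of the 10 genes were 0.09 and -0.31. Without the library labelled WT replicate 1 the first mature median was 1.13, with 19 called, and that of the 10 genes was 0.42, with 5 called. With the library labelled WT replicate 1 and Tau replicate 2 both left out, the mature medians were 0.33 and 0.105. Those of the 10 genes were then 0.31 and -0.31. Some of the mature genes, Mag, Mobp and Mog among them, were on the study's own lists from the same data. Among markers of mature cells, Mog, a myelin surface protein, was at 32.4 and 14.7 CPM in the pair labelled WT, 19.7 and 61.9 CPM in Tau and 21.2 and 19.0 CPM in Tau+UNC0642. The part of the mature cells in the values of Bcas1, Enpp6 and Sox10 was not tested.

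**Figure D5:**
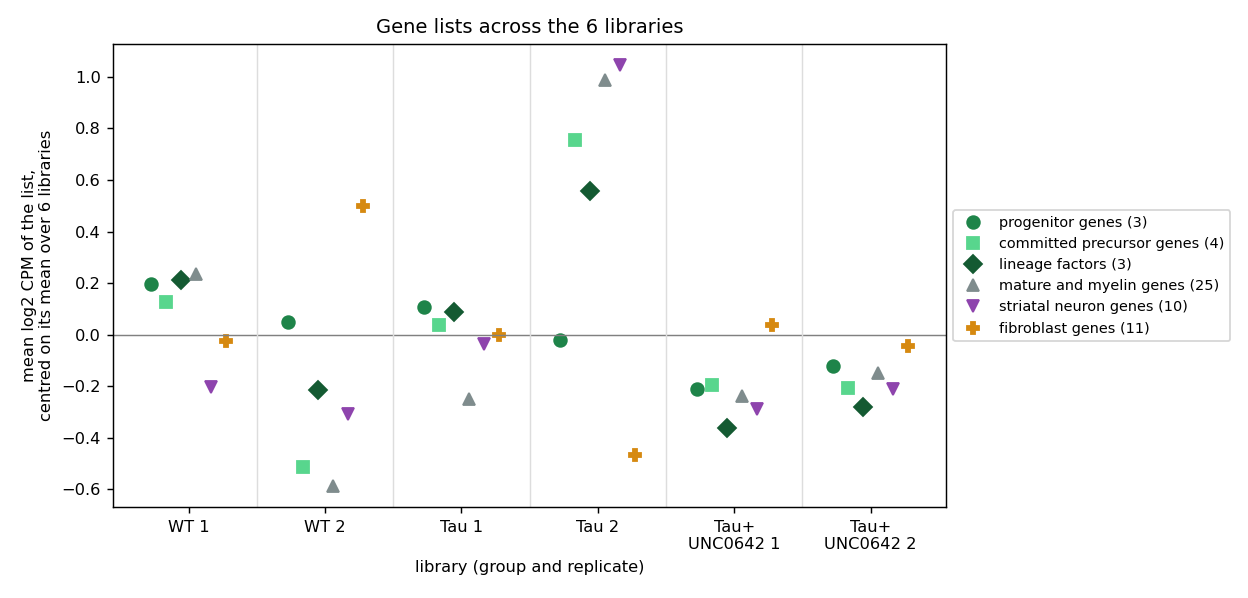
Mean log2 CPM of 6 gene lists in each library, centred on the list's mean over the 6 libraries, with the number of genes in the key. In Tau replicate 2 the committed precursor genes, lineage factors, mature genes and striatal genes lie at their highest and the fibroblast genes at their lowest, and the progenitor genes stay near 0.

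Other genes listed for the same stages had medians closer to 0 than the 10 genes, a difference that was not tested. The progenitor genes among them summed to 1751 to 2026 CPM in a library, against 78.4 to 96.4 CPM for the 3 progenitor genes above. The part of other cell types in the values of these lists was not tested. Of 20 further progenitor genes, 8 had higher and 12 lower fitted levels in Tau than in WT, with a median log2 fold change of -0.02. Vcan, a matrix proteoglycan of progenitors, rose by 0.37 ± 0.12 (edgeR, adjusted p = 0.299), and Pcdh15, a protocadherin, fell by 0.29 ± 0.10 (adjusted p = 0.325). After UNC0642, Vcan fell by 0.34 ± 0.12 (adjusted p = 0.467) and Xylt1, a xylosyltransferase that starts proteoglycan chains, fell by 0.37 ± 0.10 (adjusted p = 0.395), 2 of the 20 with a median of -0.13. Of 19 further committed precursor genes tested, Tns3 rose in Tau by 0.30 ± 0.11 (adjusted p = 0.341) and Bmp4 fell by 1.38 ± 0.49 (adjusted p = 0.324), and none was called after UNC0642. Their medians were 0.00437 and -0.0376. Against WT, Tau+UNC0642 was lower in Matn4, Cacng4 and Emid1 of the progenitor list, by log2 fold changes of -0.87, -0.49 and -0.70, and in Rras2 (-0.37) of the precursor list, whereas Slc1a1 rose by 0.26. Leaving out the library labelled WT replicate 1, the calls of Pcdh15 (-0.20) and Bmp4 (-1.31) in Tau and of Emid1 (-0.80), Rras2 (-0.31) and Slc1a1 (0.25) in Tau+UNC0642 were lost. Without Tau replicate 2 those of Vcan (0.22 and -0.20), Tns3 (0.15), Bmp4 (-1.06) and Emid1 (-0.70) were lost. Pcdh15 was also not called without Tau replicate 1 (-0.25), Tns3 without WT replicate 2 (0.25), Slc1a1 without Tau+UNC0642 replicate 1 (0.25), and Emid1 and the fall of Vcan without either Tau+UNC0642 library. Each of the other calls named here was lost in at least 1 of the 6 fits that left out a library: Xylt1 without Tau replicate 1 (-0.25), and Matn4 (-0.55) and Cacng4 (-0.37) without Tau+UNC0642 replicate 1. Vcan, Tns3 and Bmp4 were on the study's own lists from these libraries, so their directions are not independent evidence.

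Among 20 further transcription factors of the lineage, of which Sox9 was also on the astrocyte list, 3 rose and 2 fell in Tau against WT. Sox8, the closest relative of Sox10, rose by 0.57 ± 0.11 (edgeR, adjusted p = 0.108), Myrf, which turns on the myelin genes, by 0.55 ± 0.23 (adjusted p = 0.374) and Id4, an inhibitor of differentiation, by 0.50 ± 0.12 (adjusted p = 0.211). Sox4 fell by 0.91 ± 0.24 (adjusted p = 0.234) and Hes5 by 1.03 ± 0.28 (adjusted p = 0.249), both factors that hold cells in an immature state. After UNC0642, Sox8 fell by 0.33 ± 0.11 (adjusted p = 0.458) and Myrf by 0.74 ± 0.23 (adjusted p = 0.431), while Hes1 rose by 0.49 ± 0.15 (adjusted p = 0.431). Sox8 stood at 31.1 and 29.6 CPM in the pair labelled WT, 45.4 and 45.0 CPM in Tau and 32.7 and 39.1 CPM in Tau+UNC0642. Its 2 Tau libraries lay together, as those of Gpr17 did. The calls of Sox8, Id4, Sox4 and Hes5 in Tau held in each of the 6 fits that left out a library. Those of Myrf were lost without Tau replicate 2 (0.31 and -0.51), the first also without WT replicate 2 (0.36) and the second without Tau+UNC0642 replicate 1 (-0.52), and those of Sox8 (-0.21) and Hes1 (0.38) after UNC0642 without Tau+UNC0642 replicate 1. Myrf is on the study's own list from these libraries.

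The ligands and receptors of the PDGF family, which acts through Pdgfra in progenitors, were measured by 6 genes. Pdgfb rose in Tau by 0.56 ± 0.11 (edgeR, adjusted p = 0.117), and Pdgfrb, the receptor of pericytes, fell by 0.40 ± 0.18 (adjusted p = 0.402). None of the 6 was called after UNC0642, Pdgfra included. Against WT, Pdgfb was also higher in Tau+UNC0642, by 0.52 ± 0.11 (adjusted p = 0.107). Both calls of Pdgfb held in each of the 6 fits that left out a library, while that of Pdgfrb was lost without WT replicate 2 (-0.24) or Tau replicate 1 (-0.27) and was -0.55 without the library labelled WT replicate 1. Pdgfa, the main ligand of PDGFRA in the brain, differed by 0.20 ± 0.13 between Tau and WT (adjusted p = 0.55). Fibroblasts of the meninges also make Pdgfra. Over the 11 fibroblast genes tested the median was -0.50 on the log2 scale in Tau against WT with 4 called down and none up, and 0.16 after UNC0642 with 2 called up, and their part in the Pdgfra values was not tested.

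Progenitors are the main dividing cells of the adult cortex. Of 10 cell division genes, Top2a rose in Tau by 1.42 ± 0.42 (edgeR, adjusted p = 0.268) and Mki67 by 0.83 ± 0.25 (adjusted p = 0.277), with a list median of 0.32. After UNC0642, Top2a fell by 1.55 ± 0.43 (adjusted p = 0.395), Mki67 by 0.74 ± 0.25 (adjusted p = 0.461) and Ccna2 by 0.97 ± 0.41 (adjusted p = 0.537), with a list median of -0.65. Mki67 was at 2.68 and 2.73 CPM in the pair labelled WT, 4.54 and 5.10 CPM in Tau and 2.61 and 3.13 CPM in Tau+UNC0642. Both Tau libraries were above the other 4. The rise of Mki67 and the fall of Top2a were called in each of the 6 fits that left out a library. Without Tau replicate 2 the rise of Top2a (1.01) and the falls of Mki67 (-0.66) and Ccna2 (-0.67) were not called, nor were these falls without Tau+UNC0642 replicate 1 (-0.62 and -0.96), and the list medians were 0.07 and -0.23. The list median in Tau was 0.73 without the library labelled WT replicate 1. Top2a and Mki67 were on the study's own lists from these libraries, so their directions are not independent evidence. The genes of this list are made by any dividing cell, and these tissue values do not say which cells held them.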

How the data were processed

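RNA from PFC lysates was made into strand-specific, ribosomal RNA-depleted libraries. The authors trimmed reads with Cutadapt, aligned them with TopHat2, as stated to mouse RefSeq mRNAs, and counted reads per gene with featureCounts, and the submitters' processing notes name mm10. The deposited values are raw counts per gene for 54429 symbols in each library, from which all levels and fold changes were computed. In 2 of the files 26 names had become dates and were restored by position. The 10 genes and all comparison lists were chosen with earlier results of these data known.

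Genes were kept by filterByExpr (minimum count 10, minimum total 15), which left 20409, all 10 genes included. A quasi-likelihood model with group means was fitted to all 6 libraries in edgeR 4.0.16 with limma 3.58.1 (R 4.3.3), scaled by TMM (factors 0.966 to 1.04), with 3 residual degrees of freedom and a biological coefficient of variation of 12.3%. CPM used these scaled library sizes. Genes were called at a p under 0.05 and a fold of at least 1.2, the study's threshold, and p-values were adjusted by Benjamini-Hochberg over all genes tested. A floor of 3 counts is 0.104 to 0.176 CPM, for counting error only. Alternatives used DESeq2 1.42.0 size factors or Wald test, library size alone, limma-voom, other filters, pairs of groups, a replicate block, a sex term and left-out libraries.

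Positions and exon lengths came from GENCODE M21 (GRCm38) and upstream sequences from RefSeq (GRCm38.p6). The named genes were the 10 genes, up to 4 called genes by smallest p for each list and comparison with Mog and Mag of the mature list, and the 3 nearest patterns of each of the 10 genes that spanned at least 1 log2 unit. Mapt and Prnp were used to check the labels. Replicates of a group differed by more than sampling noise (chi-square per degree of freedom 14.1 in WT, 10.8 in Tau and 4.36 in Tau+UNC0642).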

Additional observations from a re-analysis of the deposited data

How the results depend on the processing

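The higher level of Gpr17 in Tau against WT and the lower levels of Olig1 and Sox10 after UNC0642 were called in all 16 alternatives. In the fit as reported, Gpr17 (fold 1.45) and Olig1 (fold 1.44) were not called at a fold of 1.5. At an adjusted p under 0.05 none of the 3 was called there. Among the 16 alternatives, the sex term was estimated from the WT pair alone, which includes the library labelled WT replicate 1. Both Tau libraries were of female pattern and both Tau+UNC0642 libraries of male pattern, so this term cannot separate sex from UNC0642. The count of genes called in Tau against WT, 2 as reported, was 5 without the filter on low counts or with a sex term, and 1 with the DESeq2 Wald test, limma-voom or the replicate block. It was 0 at an adjusted p under 0.05, 1 at a fold of 1.5, and 1 to 5 with a library left out. After UNC0642 against Tau, 5 as reported, it was 2 with the Wald test, 0 at an adjusted p under 0.05, 2 at a fold of 1.5 and 3 to 6 with a library left out. For Tau+UNC0642 against WT, 1 as reported, it was 2 without the filter or with a sex term, 4 without both the library labelled WT replicate 1 and Tau replicate 2 (an alternative chosen after seeing the data), 0 at an adjusted p under 0.05, 0 at a fold of 1.5 and 1 to 2 with a library left out. The median log2 fold change ranged from 0.0912 to 0.425 in Tau against WT, from -0.55 to -0.31 after UNC0642 and from -0.36 to -0.07 in Tau+UNC0642 against WT with a library left out, and was -0.73 after UNC0642 with a sex term. Of the fitted changes of single genes under the alternatives, 406 had the same direction and side of the threshold. With the direction kept, 31 became calls and 22 lost the call, and 21 changed sign, none of these a call as reported. With a library left out, the log2 fold changes of such genes ranged in Tau against WT from -0.18 to 0.0126 for Cspg4, -0.75 to 0.0433 for C1ql1, -0.18 to 1.59 for Enpp6 and -0.18 to 0.29 for Olig2, after UNC0642 from -0.15 to 0.15 for C1ql1, and in Tau+UNC0642 against WT from -0.12 to 0.0263 for Pdgfra, -0.77 to 0.0262 for C1ql1, -0.45 to 0.26 for Bcas1 and -0.77 to 0.77 for Enpp6. The values 0.26 of Bcas1 and 0.77 of Enpp6 came without the library labelled WT replicate 1 alone. Without it and Tau replicate 2 they were at 0.27 and 0.77 and C1ql1 at 0.0294, and in Tau against WT C1ql1 was at 0.18 and Olig2 at -0.10. With a sex term, C1ql1 in Tau against WT was at 0.0472 and Pdgfra in Tau+UNC0642 against WT at 0.0259. On library size alone, Olig2 in Tau against WT was at -0.00897 and C1ql1 after UNC0642 at 0.0149, and C1ql1 was at 0.015 there with the replicate block. The cause was not tested in these cases. Mean levels moved by more than the SD for Pdgfra in Tau (78.3 CPM on library size alone, 80.1 CPM as reported) and for Sox10 in Tau+UNC0642 (4.491 CPM on library size alone and 4.511 CPM with DESeq2 size factors, 4.499 CPM as reported).

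Same-numbered libraries did not deviate together, with correlations of -0.0344, -0.0212 and -0.00335 for the 3 pairs of groups, so the replicate numbers do not pair the samples. With the replicate block the calls were 1, 6 and 1 in the 3 comparisons. Over all genes, library size alone changed the calls in Tau against WT from 759 up and 1244 down to 415 up and 1742 down, and in Tau+UNC0642 against Tau from 762 up and 807 down to 900 up and 635 down. Of all genes, 8.07%, 6.78% and 7.49% were called in the 3 comparisons without the filter. These shares were 6.48%, 5.17% and 6.85% with the Wald test and 9.21%, 8.05% and 10.1% with a sex term. They were 9.81%, 7.35% and 9.11% with limma-voom and 8.78%, 6.88% and 8.6% with the replicate block. The number of all genes with an adjusted p under 0.05 was 32, 4 and 44 as reported, 656, 483 and 733 without the filter, and 128, 67 and 231 with the Wald test. Without the filter, 5 results of the 10 genes passed the adjustment, Gpr17 and Bcas1 in Tau against WT and Bcas1, Olig1 and Sox10 after UNC0642. The unadjusted p of Bcas1 there was 3.2e-18 in Tau and 4.7e-23 after UNC0642 (edgeR), against 0.029 and 0.016 as reported. Its log2 fold changes hardly moved (0.92 and -1.05), and its Tau libraries stood at 55.8 and 152 CPM. The cause was not tested, and these 5 results are not taken as evidence. The values of the comparison lists and their genes with libraries left out were also added after seeing the data. A group left with 1 library was assumed to vary like the other groups. With 2 mice a group, p-values rest on 3 residual degrees of freedom for each gene and on a spread estimated over genes. C1ql1, at 32 to 88 counts, allowed the least precision.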

Other observations

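The families to which the 10 genes belong were measured by 16 of 18 listed genes. In Tau against WT, 3 rose, namely Sox8, Gpr17 and Enpp2, a secreted relative of Enpp6 that oligodendrocytes make (0.30 ± 0.12 on the log2 scale, edgeR adjusted p = 0.353). After UNC0642, 5 fell, namely Sox10, Olig1, Sox8, Neu4 and Gpr17. The call of Enpp2 was lost without the library labelled WT replicate 1 (0.28) or Tau replicate 2 (0.09). Against WT, Tau+UNC0642 was lower in Sox9 (-0.61 ± 0.17, adjusted p = 0.22), a call lost without WT replicate 2 (-0.40) and at -0.79 without the library labelled WT replicate 1.

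Of the other cell types, neuron genes had no call in Tau against WT and 1 of 10 called up after UNC0642, with summed levels of 7138 to 7864 CPM over the 6 libraries. Astrocyte genes had 2 of 10 called up in Tau and none after UNC0642, and microglia genes had 2 of 10 called up in Tau and 1 called in each direction after UNC0642. Endothelial genes had 6 of 10 called down and 1 called up in Tau, with a median log2 fold change of -0.36, and 1 called up after UNC0642. Mural cell genes had 3 of 12 called down and 1 called up in Tau, and again 3 down and 1 up after UNC0642. Striatal projection neuron genes had 9 of 10 called up in Tau (median 0.79) and 8 of 10 called down after UNC0642 (median -0.75). Without Tau replicate 2 their medians were 0.18 and -0.17. Most of these striatal genes, Drd1, Drd2, Adora2a and Penk among them, were on the study's own lists from these libraries. So were C1qa and Tmem119 of the microglia list, Abcc9 and Notch3 of the mural list and Cldn5 of the endothelial list. Their directions are therefore not independent evidence. With the library labelled WT replicate 1 left out, the calls in Tau were 1 up and 1 down for astrocyte genes, 2 up for microglia genes, 4 down and 1 up for endothelial genes, 3 down and 1 up for mural cell genes and 6 up for striatal genes.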
